A study of Mus musculus with 14 samples.

Results

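The genes described here encode the receptors for glutamate, the main fast excitatory transmitter of the forebrain, together with small membrane proteins that travel with them. They were chosen by gene symbol alone: 18 genes of ionotropic receptor subunits (Gria, Grik, Grid and Grin), 8 of metabotropic receptors (Grm), 6 of TARPs (transmembrane AMPA receptor regulatory proteins, Cacng2 to Cacng5, Cacng7 and Cacng8) and 2 of cornichons (Cnih2 and Cnih3). All 34 were present among the 20492 genes of the authors' deposited table. They filled 51 coding-sequence rows, since 12 of them were split into several groups of transcripts with the same coding sequence.

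Total RNA of cortex and hippocampus came from C57BL/6 mice aged 3 months, either control or depleted of TRF2, the telomere-binding protein encoded by Terf2. The design text names Dcx-cre, in which a promoter of immature, migrating neurons drives the recombinase, so the model reaches only cells in which that promoter has been active. Cortex was taken from 4 control samples and from 3 with TRF2 depletion, and hippocampus from 3 of each kind, and 1 further TRF2-depleted sample whose labels name both tissues was placed in no group. Whether the pooled values include that sample is not known. The hippocampus table also carries a condition headed DKO that no label describes, and its genotype and number of samples are not known here. Each condition is 1 pooled FPKM (fragments scaled by transcript length and by the mapped total, so that levels of different genes can be compared), so values per sample, their spread and the read depth are unknown.

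In cortex Terf2 was at 3.59 FPKM in controls against 0.202 FPKM after depletion. Its main cortex row was not called: the authors' deposited table gave 3.11 and 0.168 FPKM, with p = 0.105, q = 0.576 and an implied 95% log2 interval from -9.31 to 0.88. Hippocampal values were 2.01 FPKM in controls, 0.883 FPKM after TRF2 depletion and 0.753 FPKM in DKO, and no Terf2 row was tested there. Markers of cortical layers summed to 46.5 and 47.4 FPKM in the 2 cortex conditions and to between 21.7 and 26.3 FPKM in the 3 hippocampus conditions, while CA pyramidal markers summed to 46.3 and 54.1 FPKM in cortex and to between 111 and 128 FPKM in hippocampus. No label says which animal a sample came from, so a deposited p reflects how much these samples varied, which may be technical.

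Ionotropic glutamate receptors are tetrameric ion channels: AMPA receptors carry most of the fast current, NMDA receptors admit calcium when the cell is already depolarised, and kainate receptors shape transmission on both sides of the synapse. Metabotropic receptors act through G proteins. TARPs and cornichons bind AMPA receptors, help them reach the surface and alter how long the channel stays open.

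The stretch just upstream of Cacng5 is shown because that gene had the smallest deposited p of any member. It covers the 250 bases before the start at chr11:107915056-107915305 on the minus strand of GRCm38.p6, is credited to RefSeq and is written 5′ to 3′. The window begins where the deposited locus of the gene ends and overlaps no gene of the GENCODE M21 annotation. Capitals mark matches to GGGCGG, the GC box, on either strand.
Cacng5: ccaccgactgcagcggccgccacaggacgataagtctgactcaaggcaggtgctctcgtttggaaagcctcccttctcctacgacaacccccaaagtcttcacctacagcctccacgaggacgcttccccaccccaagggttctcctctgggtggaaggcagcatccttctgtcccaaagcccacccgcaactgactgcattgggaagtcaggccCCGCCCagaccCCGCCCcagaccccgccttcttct
The Cacng5 window held 2 GC boxes, in sequence with 62.0% G or C. It held neither TGACGTCA, the cyclic AMP response element, nor the TATA box motif TATAAA. Over 32841 such windows 32.7% held a GC box, 1.55% the response element and 12.4% the TATA box. The members' own windows, 26 for the 22 members that matched by symbol, included 13 with a GC box.

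No member was called, meaning a deposited Cuffdiff q of 0.05 or less in any tested row, in any of the 4 comparisons. In cortex 27 members had a tested row and 0 were called, against 0.335% of all 8658 tested genes. In hippocampus 0 of 30 were called after TRF2 depletion (0.183% of tested genes), 0 of 29 in DKO against control (0.204%) and 0 of 31 in DKO against TRF2-depleted samples (0.173%). At an unadjusted Cuffdiff p under 0.05 in a gene's most abundant tested row the members counted 0 in cortex, where 6.60% of all tested genes passed, and 1 in TRF2-depleted against control hippocampus, where 5.21% passed. They counted 2 in DKO against control, where 7.18% passed, and 0 in DKO against TRF2-depleted samples, where 5.08% passed. These shares were near the background or below it.

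Median ratios of the members were small in all 4 comparisons. Among the 32 with at least 1 FPKM in 1 cortex condition, 13 were higher and 19 lower after TRF2 depletion, and the median log2 ratio was -0.12, against -0.03 over all 11084 genes measured the same way, of which 44.8% were higher. In TRF2-depleted hippocampus 16 were higher and 16 lower, with a median of 0.01 against 0.00 for all genes, of which 50.3% were higher. In DKO against control hippocampus 18 were higher and 13 lower, with a median of 0.06, while 52.1% of all genes were higher. In DKO against TRF2-depleted samples 21 were higher and 11 lower, with a median of 0.10, while 52.2% of all genes were higher. The all-gene medians of both DKO comparisons were 0.01, and the comparisons in hippocampus share samples. A ratio of at least 1.5-fold in either direction was listed for 3 of 32, 4 of 32, 5 of 31 and 2 of 32 members in these 4 comparisons. Of all genes 9.63%, 12.1%, 11.8% and 10.8% reached it. The member counts include Cacng8 in all but DKO against control, and Grm8 in both hippocampal comparisons with control. Both genes were under 0.1 FPKM in control hippocampus.

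**Figure D1:**
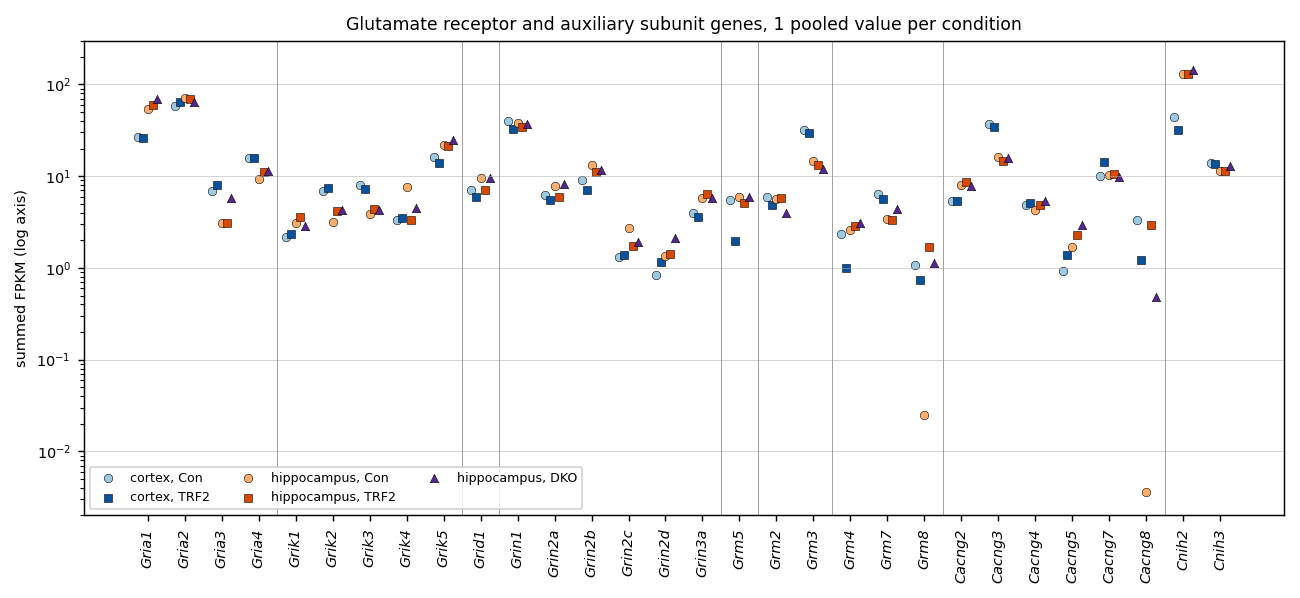
Summed FPKM of members (log scale) in the 5 pooled conditions, ordered by receptor class. Cnih2 reached 131 FPKM in control hippocampus and 44.1 in control cortex, while Cacng8 and Grm8 lay far below their other values in control hippocampus. Grin3b and Grm6 are among those not drawn.

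AMPA receptor subunits were the most abundant ionotropic class. Their FPKM summed to 107 in control cortex, 114 in TRF2-depleted cortex, 138 in control hippocampus, 142 in TRF2-depleted hippocampus and 151 in DKO hippocampus, an order that the values below keep. Gria2 encodes the subunit whose edited pore keeps calcium out, and it stood at 58.0, 64.7, 71.4, 68.6 and 64.9 FPKM. Gria1, the subunit brought to synapses during potentiation, stood at 26.5, 26.0, 53.9, 59.2 and 69.0 FPKM. Gria1 thus separated the tissues, with every hippocampal value above both cortical ones, while Gria2 differed little among the 5 conditions. Gria1 made up 24.8% and 22.8% of AMPA subunit FPKM in cortex and 39.1%, 41.6% and 45.7% in hippocampus. The Gria1 over Gria2 ratio was 0.457 in control cortex and 0.756 in control hippocampus, and in DKO hippocampus it was 1.06.

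None of these AMPA subunit differences between genotypes passed the test. In the authors' deposited table the main Gria1 row was 39.3 FPKM in control and 51.5 FPKM in DKO hippocampus (p = 0.132), a log2 ratio of 0.39 whose 95% interval, implied by that p, ran from -0.12 to 0.90. For the main Gria2 row the authors' deposited table gave a log2 ratio of -0.17 after TRF2 depletion in hippocampus, with p = 0.444 and an implied interval from -0.61 to 0.27. Gria3, an X-linked subunit, was listed at 6.87, 8.02, 3.08, 3.07 and 5.75 FPKM. Gria4, the fast-gating subunit found in many interneurons, was listed at 15.6, 15.6, 9.43, 11.2 and 11.4 FPKM. Both were lower in every hippocampal condition than in either cortical one. One of the 3 Gria4 rows had a deposited p under 0.05: in the authors' deposited table it stood at 2.96 FPKM in control hippocampus and 4.44 FPKM after TRF2 depletion (log2 ratio 0.59, implied interval 0.03 to 1.15, p = 0.0405, q = 0.886).

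Of the auxiliary subunits, Cnih2 and Cacng3 differed most between the tissues in controls, with Cacng8, described below, set aside. Control hippocampus over control cortex was 1.52-fold for Cacng2, 0.89-fold for Cacng4, 1.02-fold for Cacng7 and 0.84-fold for Cnih3. Cnih2, a cornichon that slows AMPA receptor deactivation in principal neurons, stood at 44.1, 31.8, 131, 129 and 144 FPKM, so it was the most abundant member in each hippocampal condition. In cortex the TRF2-depleted value was lower by 0.47 on the log2 scale, and in the authors' deposited table that difference had p = 0.0701 and an implied interval from -0.98 to 0.04. In hippocampus the authors' deposited table gave a log2 ratio of -0.02 after TRF2 depletion (p = 0.871, implied interval -0.32 to 0.27). Whether the 2 tissues differed in this response was not tested. Cnih3, its close relative, was listed at 13.8, 13.6, 11.5, 11.3 and 12.8 FPKM. Cnih2 exceeded it 3.20-fold in control cortex and 2.33-fold in TRF2-depleted cortex, against 11.4-fold, 11.4-fold and 11.3-fold in the 3 hippocampal conditions.

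Among the TARPs Cacng3, which encodes γ-3, was the leading cortical gene at 36.9 and 34.3 FPKM, and stood at 16.0, 14.5 and 15.6 FPKM in hippocampus. Cacng2 encodes stargazin, the first TARP to be described, and was listed at 5.30, 5.43, 8.08, 8.71 and 7.90 FPKM. The ratio of Cacng3 to Cacng2 was therefore 6.96 in control cortex and 1.99 in control hippocampus. Cacng4 was listed at 4.80, 5.15, 4.27, 4.81 and 5.33 FPKM. Cacng7, an atypical TARP of type II, was listed at 10.2, 14.2, 10.4, 10.6 and 9.68 FPKM. Neither separated the tissues as Cacng3 did.

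Cacng5 encodes γ-5, a type II TARP like Cacng7, and was low throughout, at 0.930, 1.38, 1.68, 2.29 and 2.96 FPKM. The TRF2-depleted value exceeded the control value in both tissues, and the DKO value was the highest of all. In the authors' deposited table the DKO against control difference was a log2 ratio of 0.82, or 1.76-fold, with an implied interval from 0.37 to 1.26, p = 0.00035 and q = 0.135 by Cuffdiff. It was the smallest p of any member and missed the threshold on q. Log2 ratios in the authors' deposited table were 0.45 for TRF2-depleted against control hippocampus (p = 0.0635) and 0.37 for DKO against TRF2-depleted samples (p = 0.0680), which share samples with the comparison above, and the cortex row was not tested. Cacng4 lies 80.0 kb from Cacng5 on the same strand of chromosome 11, at chr11:107732357-107794557 and chr11:107874605-107915055 in GENCODE M21 on mm10. Its own hippocampal log2 ratios were 0.17 after TRF2 depletion and 0.32 in DKO against control.

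Cacng8 encodes γ-8, a TARP known for its high level in hippocampus, yet its deposited values went from near 0 to over 1 FPKM between conditions. The cortical pair was 3.35 and 1.23 FPKM, and the hippocampal values were 0.00359 FPKM in controls, 2.97 FPKM after TRF2 depletion and 0.487 FPKM in DKO. In the authors' deposited table the control against TRF2-depleted difference in hippocampus had p = 0.256, and that in cortex had p = 0.107. Such jumps were not limited to this gene: 46 genes went from under 0.1 FPKM in control to at least 1 FPKM in TRF2-depleted hippocampus, and 38 went the other way. A fold between such values was therefore not read as a change. Cacng8 and Cacng7 lie 22.5 kb apart on the same strand of chromosome 7.

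**Figure D2:**
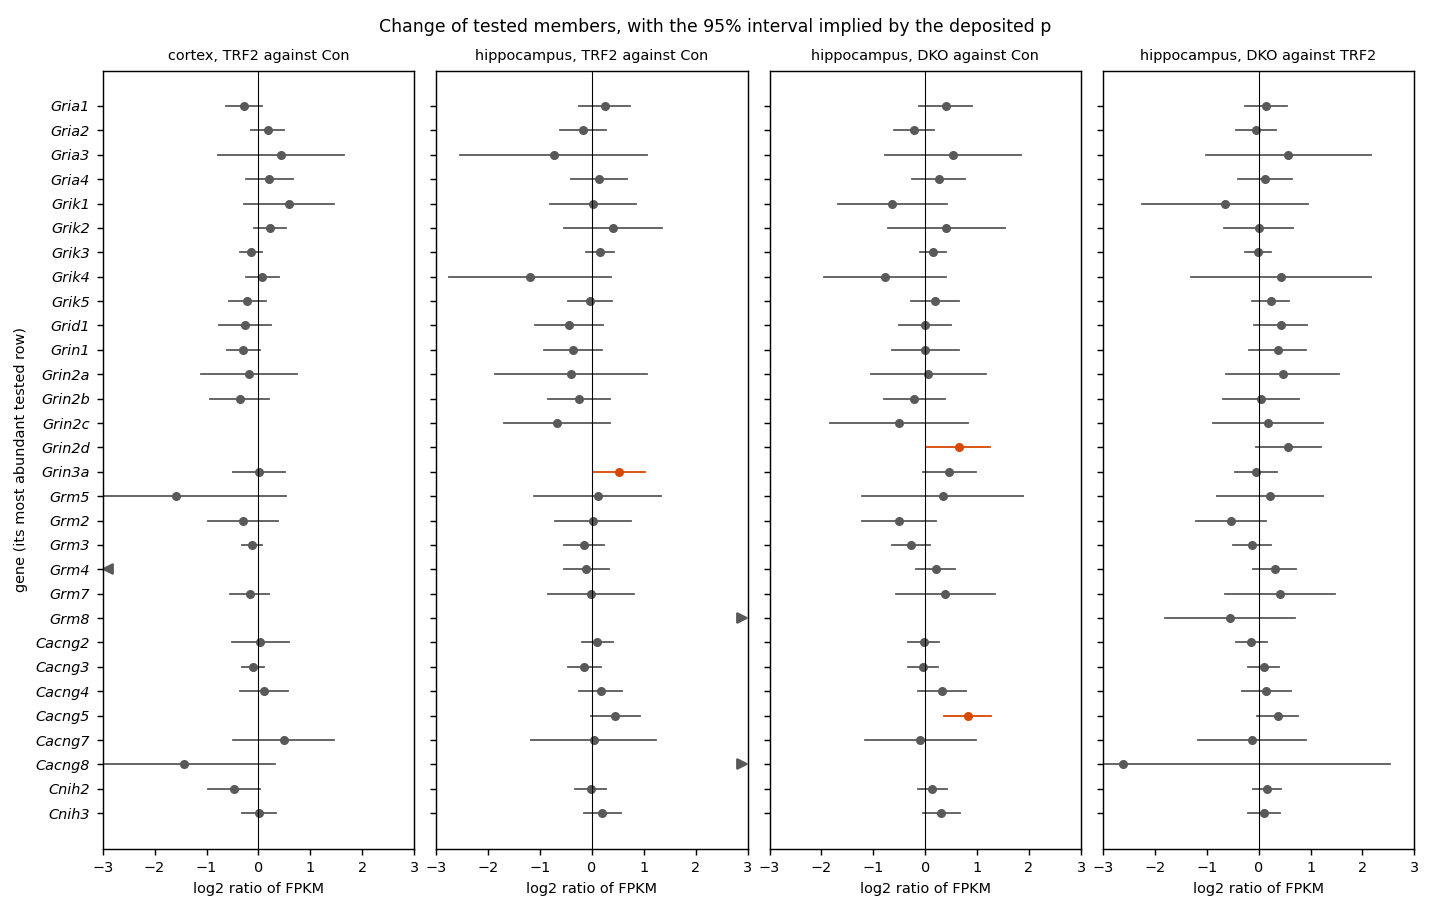
Log2 ratio of the most abundant tested row of members in the authors' deposited table, for the 4 comparisons, with the 95% interval implied by the deposited p. Orange marks p under 0.05: Grin3a after TRF2 depletion, and Grin2d and Cacng5 in DKO hippocampus. Intervals stop at the edge of the axis, and arrows mark Grm4 in cortex and Grm8 and Cacng8 in TRF2-depleted hippocampus, whose values lie beyond it.

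NMDA receptor subunits summed to 61.2 and 51.7 FPKM in cortex and to 69.3, 61.4 and 66.7 FPKM in hippocampus. Grin1 encodes the obligatory glycine-binding subunit, and it was the most abundant of them at 39.7, 33.0, 38.1, 34.7 and 36.9 FPKM. The smallest p of any member in cortex belonged to its main row, which in the authors' deposited table was 34.1 FPKM in control and 27.7 FPKM in depleted samples (log2 ratio -0.30, implied interval -0.62 to 0.02, p = 0.0687, q = 0.513). An antisense gene, Grin1os, overlaps Grin1 by 7706 bases on the opposite strand and was listed at 9.90 and 10.3 FPKM in cortex, and the sources used here do not say whether counting used strand. Grin1 is in that sense uncertain.

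GluN2 subunits set the kinetics of the NMDA channel. Grin2b, the long-current subunit that dominates early in life, stood at 9.0, 7.01, 13.4, 11.2 and 11.6 FPKM. Grin2a, the faster subunit that joins during maturation, stood at 6.24, 5.51, 7.81, 5.92 and 8.15 FPKM. The ratio of Grin2b to Grin2a stayed above 1 in every condition: it was 1.44 and 1.27 in cortex and 1.72, 1.90 and 1.42 in hippocampus. Grin2c, best known from cerebellum and glia, was listed at 1.31, 1.39, 2.74, 1.71 and 1.93 FPKM.

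Grin2d, a GluN2 subunit found in interneurons, was listed at 0.842, 1.15, 1.349, 1.41 and 2.11 FPKM. Its DKO value was the highest of the 5. In the authors' deposited table the DKO against control log2 ratio was 0.64, or 1.56-fold, with an implied interval from 0.04 to 1.25, p = 0.0363 and q = 0.886. Against TRF2-depleted samples the authors' deposited table gave p = 0.0704, and the other 2 comparisons of this gene were not tested. The interneuron marker list summed to 306, 343 and 347 FPKM in control, TRF2-depleted and DKO hippocampus, 6 of its 6 genes were higher in DKO than in control, 0 were called, and none was at 0. The part of this in the Grin2d value was not tested.

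Grin3a encodes a subunit that lowers calcium entry, and its summed values were 3.92, 3.56, 5.72, 6.40 and 5.80 FPKM. Its main row in the authors' deposited table was 3.69 FPKM in control hippocampus and 5.29 FPKM after TRF2 depletion (log2 ratio 0.52, implied interval 0.02 to 1.02, p = 0.0416, q = 0.886). The second row of Grin3a went the other way in the authors' deposited table, from 2.03 to 1.11 FPKM (p = 0.142). Summed over both rows the log2 ratio was 0.16, so the single-row value held for a transcript group and not for the gene. In DKO hippocampus the authors' deposited table gave 5.10 FPKM for the main row, with p = 0.0712 against control. Grin3b was under 0.2 FPKM in all 5 conditions.

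**Figure D3:**
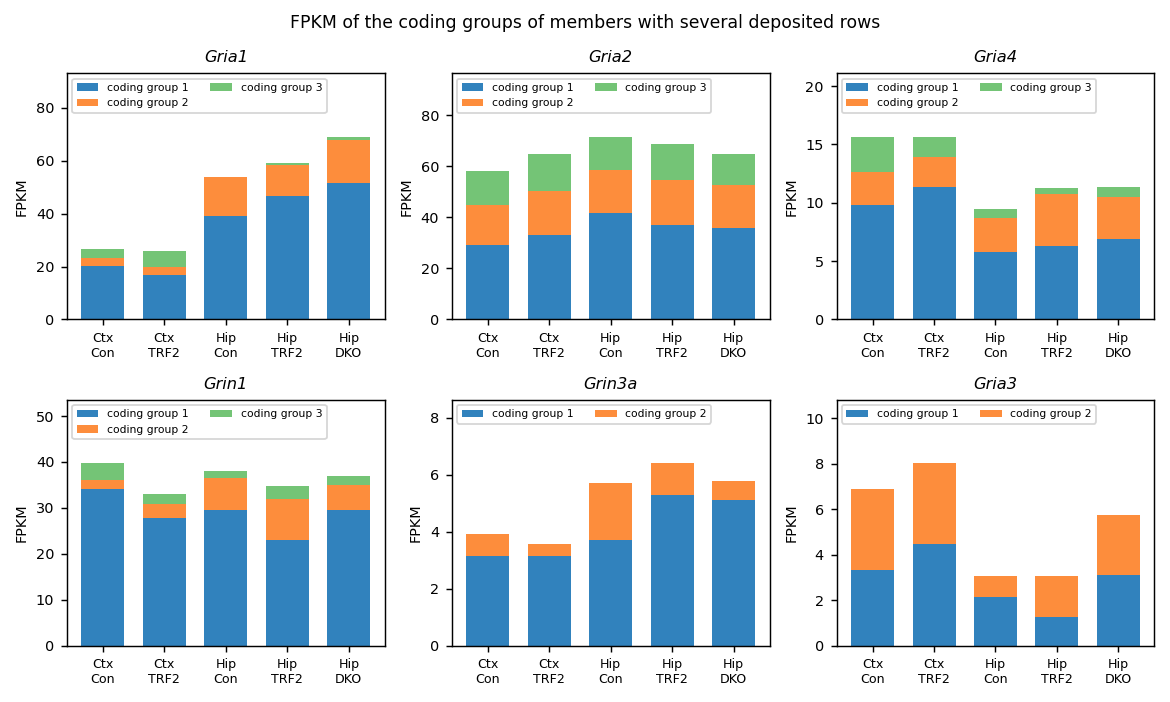
FPKM of each coding-sequence group of Gria1, Gria2, Gria4, Grin1, Grin3a and Gria3 in the 5 pooled conditions. The 2 groups of Grin3a moved in opposite directions between control and TRF2-depleted hippocampus, and the 3 groups of Gria2 kept their order in every condition.

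The share held by each coding group shows how far a member's total rests on 1 estimate. The leading group of Gria2 held 50.5% and 51.2% of the gene in cortex and 58.3%, 53.8% and 55.0% in hippocampus. For Grin1 it held 85.8% and 84.0% in cortex, and 77.6%, 66.1% and 80.1% in hippocampus. Gria2 was thus divided in much the same way everywhere, while the leading Grin1 group held less of its gene in hippocampus. Which isoform (flip or flop, or an alternative C terminus) each group holds is not stated in those sources. Gria3 was divided less evenly than Gria2 and Grin1: its first group held 69.3% in control hippocampus and 41.7% in TRF2-depleted hippocampus, although the summed levels were 3.08 and 3.07 FPKM. In Grik1 and Grm5 the leading group differed between the tissues. Coding group 1 of Grik1 held 27.8% in control cortex and 85.6% in control hippocampus, and that of Grm5 held 3.19% and 71.0%.

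Kainate receptor subunits summed to 36.4 and 34.2 FPKM in cortex and to 39.5, 36.6 and 40.7 FPKM in hippocampus. Grik5, a high-affinity subunit that needs a partner to form a channel, led the class at 16.1, 13.8, 21.7, 21.1 and 24.8 FPKM. Grik4, the other high-affinity subunit and a gene of CA3 and dentate granule cells, was listed at 3.29, 3.47, 7.62, 3.32 and 4.46 FPKM. Control hippocampus therefore stood alone, and the 4 other conditions lay between 3.29 and 4.46 FPKM. In the authors' deposited table the hippocampal Grik4 log2 ratio was -1.20 after TRF2 depletion (p = 0.132, implied interval -2.76 to 0.36) and -0.77 in DKO (p = 0.195), so neither passed the test.

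The dentate granule cell marker list moved in the same comparisons. Its 7 genes summed to 90.8 FPKM in control, 52.2 FPKM in TRF2-depleted and 62.2 FPKM in DKO hippocampus, with none at 0. All 7 were lower after TRF2 depletion, at a median log2 ratio of -1.05, and 5 were called, against 0.183% of all tested genes. In DKO 7 of 7 were lower, at a median of -0.59, and 3 were called, against 0.204% of all tested genes. The list was chosen with earlier results of these data known, so these counts are descriptions and not an independent test. The CA pyramidal marker list summed to 111 FPKM in control, 119 FPKM in TRF2-depleted and 128 FPKM in DKO hippocampus. Its median log2 ratios against control were -0.03 after TRF2 depletion and 0.27 in DKO, with 0 called in either. Of its genes 3 were higher and 4 lower after TRF2 depletion, and 6 were higher and 1 lower (Cpne4) in DKO. The list is not divided by CA field, so it does not give CA3 alone. The part of either cell type in the Grik4 values was not tested. In bulk tissue fewer cells of a type and less RNA per cell cannot be told apart.

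Of the low-affinity kainate subunits, Grik2 and Grik3 were higher in cortex and Grik1 in hippocampus. Grik2, which forms channels by itself, was listed at 6.93, 7.43, 3.19, 4.21 and 4.23 FPKM. Grik3, a presynaptic subunit with low glutamate sensitivity, was listed at 7.94, 7.19, 3.91, 4.37 and 4.32 FPKM. In both genes every cortical value exceeded every hippocampal one. Grik1 was listed at 2.17, 2.36, 3.10, 3.57 and 2.85 FPKM, with the 2 cortical values lowest. The ratio of Grik5 to Grik2 was 2.32 in control cortex and 6.82 in control hippocampus.

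Delta receptors bind cerebellin-type proteins across the cleft and pass little current in most cells. Grid1 was listed at 7.14, 5.97, 9.57, 7.08 and 9.49 FPKM. The TRF2-depleted value was below the control value in each tissue, but neither difference was called. In the authors' deposited table the log2 ratio was -0.26 in cortex (Cuffdiff p = 0.319) and -0.43 in hippocampus (Cuffdiff p = 0.192). Both implied intervals included no change.

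Metabotropic receptors summed to 56.2 and 47.1 FPKM in cortex and to 39.2, 38.7 and 37.8 FPKM in hippocampus. Grm3, a group II receptor of astrocytes and neurons that lowers cyclic AMP, made up more of the class than any other at 32.2, 29.4, 14.5, 13.1 and 11.98 FPKM. Its group II partner Grm2 was listed at 5.89, 4.80, 5.61, 5.73 and 3.95 FPKM. Grm3 was about as different between the tissues as Cacng3, while Grm2 was not. The deposited Grm3 locus spanned 240 kb in cortex and 460 kb in hippocampus, while that of Cacng3 spanned 97.7 kb in both. Whether this locus difference enters the Grm3 values was not tested. The astrocyte marker list summed to 130 and 132 FPKM in cortex and to 198, 187 and 195 FPKM in hippocampus. Its genes did not all go the same way: in controls Aldh1l1 was lower in hippocampus, as Grm3 was. Gfap, Gja1, Aqp4 and Slc1a3 were higher there, Gfap by the most. The part of astrocytes in the Grm3 values was not tested.

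Grm5, a receptor that raises calcium through Gq, was listed at 5.56, 1.98, 5.97, 5.15 and 5.96 FPKM, and TRF2-depleted cortex stood apart. In the authors' deposited table the tested Grm5 row of cortex was 5.38 FPKM in control and 1.8 FPKM after TRF2 depletion, with p = 0.141 and an implied log2 interval from -3.68 to 0.53. That interval holds both no change and a large one.

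Group III receptors are mostly presynaptic brakes on release. Grm7, the member of the active zone, was listed at 6.34, 5.65, 3.39, 3.35 and 4.43 FPKM. Grm4 was listed at 2.32, 1.01, 2.57, 2.83 and 3.06 FPKM. The cortical Grm4 pair rested on 2 rows that traded places: in the authors' deposited table the first was 2.32 FPKM in control and 0.0142 FPKM after TRF2 depletion (p = 0.264), and the second was at 0 in control and 0.993 FPKM after depletion. Grm8 was listed at 1.07, 0.744, 0.0249, 1.68 and 1.14 FPKM, and in the authors' deposited table its TRF2-depleted against control difference in hippocampus had p = 0.193. Grm6, the receptor of retinal ON bipolar cells, was listed at 0 in all 5 conditions.

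The tissue difference was set out for controls and for TRF2-depleted samples, which are different samples. The 2 tissues come from tables normalized separately and were not tested against each other, so these are descriptions. The deposited locus of a gene can also differ between the 2 tissues, as for Grm3. Among 32 members 12, or 37.5%, differed at least 2-fold between control hippocampus and control cortex, where 16.6% of 11613 genes did. Cacng8 and Grm8 were among the 12 through control hippocampal values near 0. With a limit of at least 0.1 FPKM in all 4 conditions, chosen after seeing the data, 10 of 30 members (33.3%) differed that far, against 14.7% of 11326 genes. The 5 that were higher in hippocampus included Cnih2 (2.98-fold), Grik4 (2.31-fold), Grin2c (2.09-fold) and Gria1 (2.04-fold). The 7 that were higher in cortex were Cacng3 (2.30-fold), Gria3 (2.23-fold), Grm3 (2.22-fold), Grik2 (2.17-fold) and Grik3 (2.03-fold), with Grm8 and Cacng8, whose near-zero control values set no usable fold.

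In TRF2-depleted samples 9 members, or 28.1%, differed at least 2-fold between the tissues, against 16.8% of all genes. Under the limit of 0.1 FPKM these were 7 of 30 members (23.3%) and 15.0% of genes. Of the 12 members above, 5 (41.7%) were at least 2-fold apart in both pairs with the same sign, where 61.7% of the genes at least 2-fold apart in controls were. With the limit of 0.1 FPKM this was 5 of 10 members (50%) and 59.6% of 1668 genes. The other 4 of the 9 were Grm4 and Grm5, which were under 2-fold in controls, and Cacng8 and Grm8, whose sign was the opposite. Counting the sign alone, 9 of the 12 members (75%) and 1739 of 1924 genes (90.4%) had the same sign in the TRF2-depleted pair. Under the limit of 0.1 FPKM, which leaves out Cacng8 and Grm8, this was 9 of 10 members (90%) and 91.3% of 1668 genes. The exceptions were Grik4, with a log2 ratio of 1.21 in controls and -0.06 in TRF2-depleted samples, and Cacng8 and Grm8. Cnih2 had a log2 ratio of 1.58 in controls and 2.02 in TRF2-depleted samples. Gria1 had ratios of 1.02 and 1.19 on that scale, Cacng3 of -1.20 and -1.24, and Grm3 of -1.15 and -1.17. These 4 genes thus had ratios of the same sign in both genotypes.

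**Figure D4:**
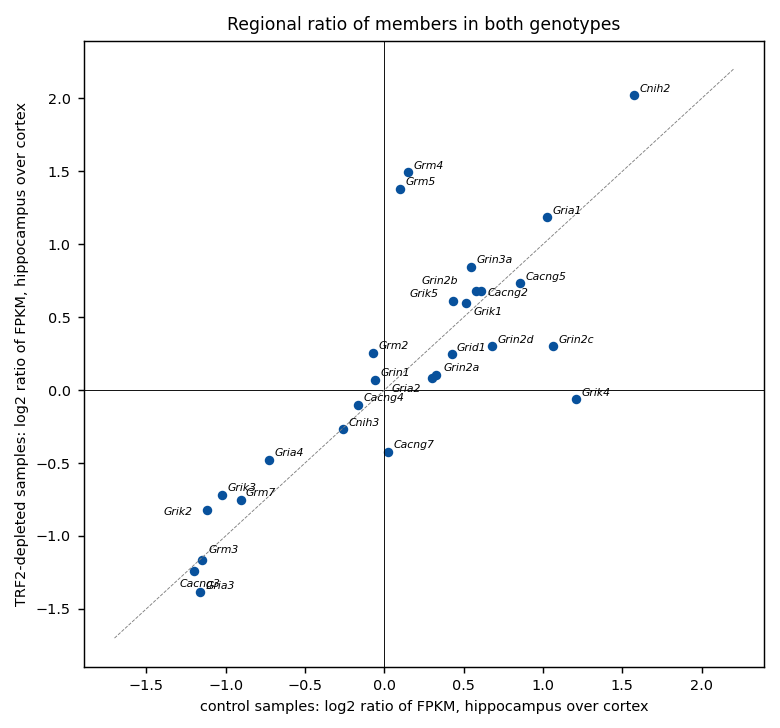
Log2 ratio of hippocampus over cortex for members in control samples (x axis) and in TRF2-depleted samples (y axis), with a dashed line where both are equal. Cnih2 and Gria1 lie at the upper right, Cacng3, Grm3 and Gria3 at the lower left, and Grik4, Grm4 and Grm5 lie far from the line. Cacng8 and Grm8 fall outside the axes, and Grin3b and Grm6 are among those not drawn.

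Other genes of glutamatergic synapses were counted from lists of further auxiliary subunits, scaffolds, kinases and editing enzymes, transporters, and ligands and organisers, 71 genes of which were in the table. These lists were chosen with earlier results of these data known, so their counts are descriptions. In cortex 1 of 58 tested genes fell and 0 rose at the same q threshold, against 0.335% of all tested genes. That gene was Nptx2, a secreted pentraxin that gathers AMPA receptors, which in the authors' deposited table stood at 15.2 FPKM after TRF2 depletion against 21.1 FPKM in control (log2 ratio -0.47, q = 0.00864). At an unadjusted p under 0.05, 1 gene was higher and 4 were lower, beside 6.60% of all tested genes in either direction. The 5 included Prrt2, a protein of the release machinery also found with AMPA receptors (p = 0.0201 in the authors' deposited table).

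In TRF2-depleted hippocampus 2 of 63 tested genes fell and 0 rose, against 0.183% of all tested genes. They were C1ql2 and C1ql3, secreted C1q-like proteins that link presynaptic neurexin to kainate receptors or adhesion receptors. C1ql2 was 19.2 FPKM in control, 11.4 FPKM in TRF2-depleted and 12.7 FPKM in DKO hippocampus in the authors' deposited table, and C1ql3 was 45.4, 31.0 and 29.0 FPKM. Against control the authors' deposited table gave log2 ratios of -0.75 and -0.59 for C1ql2 and of -0.55 and -0.65 for C1ql3, each with q = 0.0301, the smallest q of that table. These 2 genes were also the called genes among 64 tested in DKO against control, where 0.204% of all tested genes were called. C1ql2 is itself in the dentate granule marker list, so it adds nothing independent to the marker values above. C1ql3 is not in that list but was lower in the same comparisons, and the part of granule cells in its values was not tested.

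In DKO against TRF2-depleted hippocampus 0 of 63 tested genes were called by Cuffdiff, against 0.173% of all tested genes, and 4 were higher and 0 lower at an unadjusted p under 0.05, where 5.08% of all tested genes passed. Camk2b, a subunit of the calcium and calmodulin kinase that phosphorylates AMPA receptors, had the smallest p of its list: in the authors' deposited table its main row was 25.7 FPKM in TRF2-depleted and 51.7 FPKM in DKO samples (p = 0.00225, q = 0.365). Its summed values were 38.7 FPKM in control, 26.5 FPKM in TRF2-depleted and 52.1 FPKM in DKO hippocampus, so control lay between. Against control, 0 genes of its list had an unadjusted Cuffdiff p under 0.05 in either hippocampal comparison. Of 19 scaffold genes 14 were higher in DKO than in TRF2-depleted hippocampus, at a median of 0.20 on the log2 scale. There 52.2% of all genes were higher and their median was 0.01. The same list had 8 higher and 11 lower genes in TRF2-depleted against control hippocampus, which shares the TRF2-depleted samples, at a median of -0.02. In DKO against control hippocampus 12 were higher and 7 lower, at a median of 0.19, where 52.1% of all genes were higher. Shank3, which builds the postsynaptic density, had p = 0.0116 in the authors' deposited table for DKO against TRF2-depleted samples. Its summed values were 21.2 FPKM in control, 17.0 FPKM in TRF2-depleted and 22.3 FPKM in DKO hippocampus. In cortex 16 of 19 scaffold genes were lower after TRF2 depletion, at a median of -0.14, beside -0.03 for all genes.

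Markers of other cells also differed between the pooled conditions that these comparisons use. Choroid plexus genes, 7 in all, summed to 277 FPKM in control, 491 FPKM in TRF2-depleted and 9.88 FPKM in DKO hippocampus, and to 97.0 and 1.87 FPKM in cortex. Of this Ttr made up 264, 472 and 5.52 FPKM in hippocampus and 93.3 and 1.15 FPKM in cortex. In cortex 5 of the 7 were under 1 FPKM, and Ttr was called lower after TRF2 depletion (q = 0.00864), against 0.335% of all tested genes. All 6 choroid plexus genes that were measured were lower in DKO than in control hippocampus, and 3 were called, against 0.204% of all tested genes. Striatal genes summed to 47.9 FPKM in control cortex and 59.7 FPKM after TRF2 depletion, with 5 of the 5 measured higher. General neuronal markers summed to 955 and 1007 FPKM in cortex and to 729, 747 and 732 FPKM in hippocampus, with 0 called in any comparison with control. Meningeal genes summed to 196, 308 and 318 FPKM in hippocampus, of which Ptgds made up 165, 265 and 283 FPKM. All 6 were higher after TRF2 depletion, and 5 were higher and 1 lower (Igf2) in DKO against control. Ptgds was the 1 gene called in each of these comparisons, against 0.183% and 0.204% of all tested genes. These marker lists were also chosen with earlier results of these data known. The part of the marker differences in the members' values was not tested.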

How the data were processed

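RNA was isolated by RNeasy kit and libraries were prepared by NEBNext Ultra, per the labels' protocols. CASAVA 1.8, TopHat2, Cufflinks, Cuffdiff and mm10 are named per the submitters' processing notes, while neither annotation nor settings are stated there. The authors deposited 1 pooled FPKM per condition and coding-sequence row, beside the Cuffdiff p-value and the q-value of each row (per the file headers). In hippocampus each deposited q matched Benjamini-Hochberg over all 3 comparisons to within 5.26e-07, while those of cortex differ from an adjustment over their table by up to 0.335. Groups follow the samples' titles and genotype labels.

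FPKM was summed over a gene's rows, and log2 ratios were recomputed from it without a pseudocount for genes with at least 1 FPKM in 1 condition. A call needed a q of 0.05 or less, as deposited, in any tested row, and a second rule took an unadjusted p under 0.05 in the most abundant tested row. Implied 95% intervals divide the log2 ratio by the normal deviate of the deposited p, a choice made after seeing the data. Members with at least 1 FPKM in 1 condition were named, except some that are not reported here, with full test values for those with p under 0.05 and for the smallest p of a comparison. The members and lists were chosen with earlier results of these data known. Pathway genes were named where called, or among the smallest p of a list. Alternatives covered the q and p thresholds, the adjustment, the rows used, a minimum fold, the minimum FPKM, a pseudocount and centring. Read depth is unknown. The calling code was first tested on artificial tables with known changes. Positions are from GENCODE M21, and the upstream windows from RefSeq GRCm38.p6, the one shown starting at the gene start nearest to the deposited locus end. Software was matplotlib 3.10.9, scipy 1.17.1, pandas 2.3.3, numpy 2.4.6 and Python 3.11.15.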

Additional observations from a re-analysis of the deposited data

How the results depend on the processing

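No paired analysis was possible because each condition is deposited as 1 pooled value, and for the same reason no replicate could be left out. The number of members called stayed at 0 in all 4 comparisons with a q threshold of 0.1 or 0.01, a new adjustment within each comparison, the most abundant row only, a minimum fold of 1.5 and a minimum of 1 FPKM. The count of members with unadjusted p under 0.05 in TRF2-depleted against control hippocampus was 1, and became 2 with any tested row (Gria4 was added) and 0 with p under 0.01. In DKO against control it was 2, and became 1 with p under 0.01. Member medians moved by under 0.1 in every setting. The median of TRF2-depleted against control hippocampus, 0.01, was -0.06 with at least 5 FPKM, so its sign has no weight. Of 127 log2 ratios of named members, 30 moved by at least 0.1 when the most abundant row replaced the sum, with 7 changes of sign, 23 moved with a pseudocount of 1 FPKM, with 0 changes of sign, and 0 moved that far with centring on all genes, with 2 changes of sign. The cause was not tested. The unknown read depth limits what can be said of members near 1 FPKM, such as Cacng5, Grin2d, Cacng8 and Grm8.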
